A study of Mus musculus with 8 samples.

Results

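The genes described here are 51 genes that copy the genome and supply its building blocks, followed through the activation of mouse natural killer (NK) cells with interleukin-2 (IL-2). They were named by their role in DNA replication, from origin recognition to the packing of new DNA. Earlier results of these data were known when they were chosen. For each gene the transcript cluster (a group of probes for 1 transcript) with the highest mean signal over the arrays was taken. Of the 51 genes, 50 had a cluster of their own, among 22180 genes in all, and Rfc4 shared its only cluster with another gene.

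NK cells came from mouse bone marrow from which CD90-positive cells, mainly T cells, had been removed. RNA from 8 samples was hybridised to Affymetrix Mouse Gene 2.0 ST arrays, with 2 samples titled as biological replicates in each of 4 groups. The labels do not say whether replicates came from separate mice, so p-values measure the spread between these samples. The day 0 cells were freshly isolated and had no added IL-2. The day 4 cells had 4 days with 1000 IU/mL IL-2 and stand for acute activation. The day 9 cells received IL-2 again on day 4 and stand for chronic activation. The day 9 + KU55933 cells were treated in the same way and also received 7.5 µM KU55933, an inhibitor of the DNA damage kinase ATM, from day 4. The labels name no genetic change in any group, and they do not state whether the untreated day 9 cells received the inhibitor's solvent. Activated cells were collected by adherence, so day 0 and the cultured groups differ in collection as well as in IL-2 and time in culture, and these cannot be told apart.

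Before S phase, the origin recognition complex with Cdc6 and Cdt1 loads the ring of MCM proteins onto DNA, which licenses each origin for a single use. Kinases and firing factors then turn the loaded rings into active helicases, and DNA polymerases with primase, the sliding clamp and its loader copy both strands. Ribonucleotide reductase and its partner enzymes make the deoxynucleotides, and much of this gene set is transcribed under E2F factors as cells enter the cycle. Resting NK cells divide little, and IL-2 is a strong mitogen for them.

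Signals are the authors' log2 values, and a difference is a difference of group means on that scale, ± its standard error from limma, with 2 arrays in each group. A gene was called where limma's adjusted p, over the 13998 genes bright enough to test, was below 0.05. All 50 members with a cluster were bright enough, but Orc1 on 1 day 0 array, Cdc6 on 1 day 9 array and Gins1 on 3 arrays of days 0 and 9 lay below the array median, so their changes against those groups may be understated. Array medians ran from 3.66 to 3.91, and the median SD between replicates over all genes was 0.161 on day 0 against 0.0789 to 0.0892 in the cultured groups. All 10 NK markers lay above the array median in every group, with a list mean of 9.84 to 10.35, although a list of 7 T cell markers also averaged 6.39 to 6.93. That T cell mean covers members that moved in opposite directions. Thy1, the gene for CD90, read 8.20 and 8.15 on day 0 and was 2.19 higher on day 4. Cd4 differed from day 0 by -1.68 on day 4. On day 9 the difference from day 0 was 1.56 for Cd3g and -2.21 for Cd4. The marker means of other cells moved with time. The mean of 5 macrophage markers was 7.73 to 7.96 on day 0, 7.27 to 7.61 on day 4 and 4.37 to 4.68 in both day 9 groups. The mean of 8 neutrophil markers was 3.76 to 3.99 on day 0, 5.86 to 5.93 on day 4, where all 8 lay above the array median, and 3.23 to 3.40 in the day 9 groups. B lineage markers averaged 6.19 to 6.21 on day 0, 4.67 to 5.07 on day 4 and 3.39 to 3.56 in the day 9 groups, and megakaryocyte markers 8.50 to 8.72, 4.73 to 5.14 and 3.65 to 3.82. Of the neutrophil and macrophage markers, 2 were called between the day 9 groups. Ly6g was higher with KU55933 (1.77, limma adjusted p = 0.0166) and Lyz2 lower (-0.68, limma adjusted p = 0.0459). Of the dendritic markers, Bst2 was called higher with KU55933 (0.67, limma adjusted p = 0.0388). The part of these cells in the changes below was not tested. In such bulk samples, fewer cells in the cycle and less replication RNA per cell cannot be told apart.

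On day 4, nearly the whole replication machinery stood higher than on day 0. Of the 50 members, 49 rose and none fell, against 37.5% of all tested genes called up and 22.4% called down. The median difference was 2.03 over the members and 0.08 over all tested genes, and 41 members rose at least 2-fold. The share of all tested genes past 2-fold was not computed for any comparison, so the 2-fold counts here and below have no background. The range ran from 0.22 for Slbp, the member that was not called, to 4.26 for Rrm2. In all 50 members both day 4 arrays lay above both day 0 arrays. The share of all tested genes that separated in this way was not computed, so this count has no background beside it. Of the 49 calls, 42 were kept under all 17 alternative settings, and those of Orc3, Orc4, Pold1, Pcna, Rfc1, Rfc2 and Rpa3 were lost under at least 1. With each array centred on the median of its tested genes, 45 members rose and the member median was 1.69. This step moved every gene's difference by -0.35. The tested-gene medians were 5.51 and 5.58 on day 0 and 5.91 and 5.87 on day 4. The array medians over all clusters went the other way, from 3.91 and 3.90 to 3.67 and 3.67. After centring, 27.8% of all tested genes were called up and 41% down.

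By day 9, most of the rise was gone. Against day 4, 46 members fell and none rose, where 15.6% of all tested genes were called down and 12.2% up. The median difference was -1.88 over the members and -0.01 over all tested genes, and 39 members fell at least 2-fold. The members not called lower were Orc4, Orc5, Gins4 and Dut.

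Against day 0, the day 9 cells had members on both sides, in shares close to those of all tested genes. Of the 50 members, 18 (36%) were called above day 0 and 13 (26%) below it, where 36% of all tested genes were called up and 22% down. The member median was 0.14, beside 0.09 over all tested genes. Differences ran from -1.08 for Tk1 to 2.42 for Orc2, and 3 members rose at least 2-fold while 2 fell that far. The counts are thus near the background, and they depend on the scale of the arrays. Centring on the median of the tested genes moved the difference of every gene by -0.23. The array medians over all clusters went the other way, from 3.91 and 3.90 on day 0 to 3.70 and 3.71 on day 9. After centring, 14 members were called higher and 17 lower, and the member median was -0.09. Over all tested genes the centred shares were 29.1% called up and 33.1% down. Direction here is therefore given on the deposited scale.

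**Figure D1:**
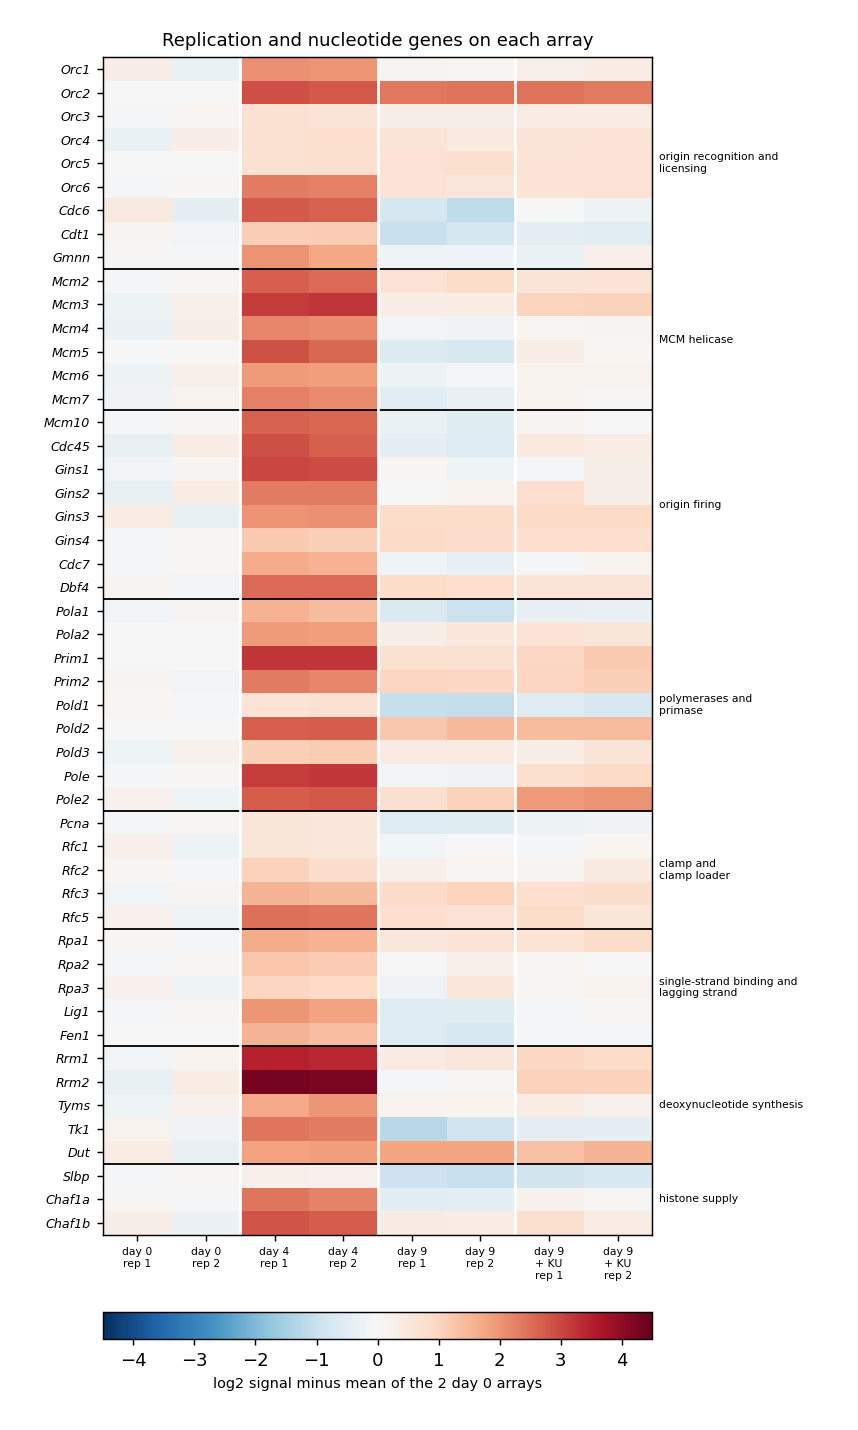
Signal of the 50 members with a cluster of their own on each of the 8 arrays, in rows ordered by role, as the log2 difference from the gene's mean over the day 0 arrays. The day 4 columns are higher than day 0 in all 50 members, and the day 9 columns return toward day 0 except in members such as Orc2 and Dut.

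The 13 members below day 0 on day 9 were Cdc6, Cdt1, Mcm5, Mcm7, Mcm10, Pola1, Pold1, Pcna, Lig1, Fen1, Tk1, Chaf1a and Slbp. The 18 above day 0 were Orc2, Orc4, Orc5, Orc6, Mcm2, Gins3, Gins4, Dbf4, Pola2, Prim1, Prim2, Pold2, Pole2, Rfc3, Rfc5, Rpa1, Rrm1 and Dut. Of these 31 calls, 19 were kept under all 17 alternative settings, and those of Orc4, Orc6, Cdc6, Mcm2, Mcm7, Mcm10, Gins3, Pola2, Rfc5, Rpa1, Rrm1 and Chaf1a were lost under at least 1. The day 4 and day 9 comparisons with day 0 share the day 0 arrays, so the values of both are given side by side below.

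Since this gene set is known for E2F control, RefSeq promoter windows of 300 bases (250 before to 50 after an annotated start, build GRCm38.p6) were searched on both strands for TTTCCCGC, TTTGCCGC, TTTCGCGC and TTTGGCGC. Windows were on hand for 43 of the 51 members, 52 windows in all. An E2F motif was found in 15 of the 43 members (34.9%), in 4.35% of the 10924 tested genes with a window and in 2.6% of all 27025 genes. The CCAAT box (CCAAT) was found in 58.1% of members and 41.6% of tested genes, the GC box (GGGCGG) in 79.1% and 63.9%, and the cell-cycle homology element (TTTGAA) in 16.3% and 14.4%. By course, the E2F motif was held by 7 of the 13 members below day 0 on day 9, by 5 of the 13 with a window that were not called and by 3 of the 16 with a window above it. Of the 19 members not called, only those 13 had a window. Among the members with a motif, the day 9 calls of Cdc6, Mcm7 and Gins3 were lost under some settings. No such split was made over all tested genes, so a link between motif and course was not tested. These are counts of letters in a window, and binding was not measured.

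The windows below belong to members picked with results known, for the different changes named next, and do not stand for other members. Tk1, the lowest member on day 9 against day 0, had a window with none of the E2F letters searched. Mcm5 and Cdc6 ended below day 0 on day 9, Mcm3 rose the most of the MCM genes, Pole2 had the largest difference with KU55933, and Orc2 had the largest difference from day 0 on day 9. Each is written 5′ to 3′ along the gene, with E2F motifs in capitals on either strand. The 2 motifs of Mcm5, from base -153 to base -142 relative to the start, overlap in 1 run, and neither window of Orc2 holds one.
Mcm5 (chr8:75109259-75109558, plus strand): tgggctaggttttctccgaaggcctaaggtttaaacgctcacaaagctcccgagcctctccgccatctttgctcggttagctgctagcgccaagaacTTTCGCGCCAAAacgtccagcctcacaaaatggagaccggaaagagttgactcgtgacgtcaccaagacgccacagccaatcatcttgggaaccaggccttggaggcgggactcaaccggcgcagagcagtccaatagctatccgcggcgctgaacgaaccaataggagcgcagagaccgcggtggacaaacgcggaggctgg
Cdc6 (chr11:98907901-98908200, plus strand): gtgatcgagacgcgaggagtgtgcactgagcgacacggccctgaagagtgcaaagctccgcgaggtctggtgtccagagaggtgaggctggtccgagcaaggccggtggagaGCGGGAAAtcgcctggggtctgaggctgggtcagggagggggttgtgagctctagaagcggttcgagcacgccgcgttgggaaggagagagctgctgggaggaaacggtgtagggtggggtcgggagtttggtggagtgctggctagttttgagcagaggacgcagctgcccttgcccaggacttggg
Mcm3 (chr1:20820263-20820562, minus strand): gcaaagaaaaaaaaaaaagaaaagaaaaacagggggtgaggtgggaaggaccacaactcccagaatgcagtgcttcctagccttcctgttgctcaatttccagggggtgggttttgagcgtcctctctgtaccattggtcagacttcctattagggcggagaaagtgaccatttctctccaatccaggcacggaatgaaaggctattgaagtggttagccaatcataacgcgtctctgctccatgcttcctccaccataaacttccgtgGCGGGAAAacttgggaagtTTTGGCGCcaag
Pole2 (chr12:69228141-69228440, minus strand): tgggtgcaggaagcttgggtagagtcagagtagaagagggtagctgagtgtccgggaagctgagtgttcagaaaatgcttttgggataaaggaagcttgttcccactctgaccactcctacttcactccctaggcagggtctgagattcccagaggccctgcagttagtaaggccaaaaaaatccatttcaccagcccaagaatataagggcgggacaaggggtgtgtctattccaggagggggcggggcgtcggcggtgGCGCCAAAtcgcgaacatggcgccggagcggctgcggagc
Orc2 (chr1:58505060-58505359, minus strand): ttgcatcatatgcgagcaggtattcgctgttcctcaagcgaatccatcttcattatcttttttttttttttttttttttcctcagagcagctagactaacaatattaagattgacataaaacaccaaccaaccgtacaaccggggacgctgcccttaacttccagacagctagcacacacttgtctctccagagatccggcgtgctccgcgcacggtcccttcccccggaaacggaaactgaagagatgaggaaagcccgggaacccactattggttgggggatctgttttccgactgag

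In these windows the Cdc6 motif begins at base -138 from the annotated start, whereas those of Mcm3 and Pole2 lie just after it, the Pole2 motif at base 11 and the Mcm3 motifs at bases 20 and 39. Over the 21 E2F motifs in members' windows the median position was -27 from the start, and over the 781 in all windows it was -88. Rrm2, the member that moved the most, had a window with none of the E2F letters searched, 1 CCAAT box and 2 GC boxes.

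**Figure D2:**
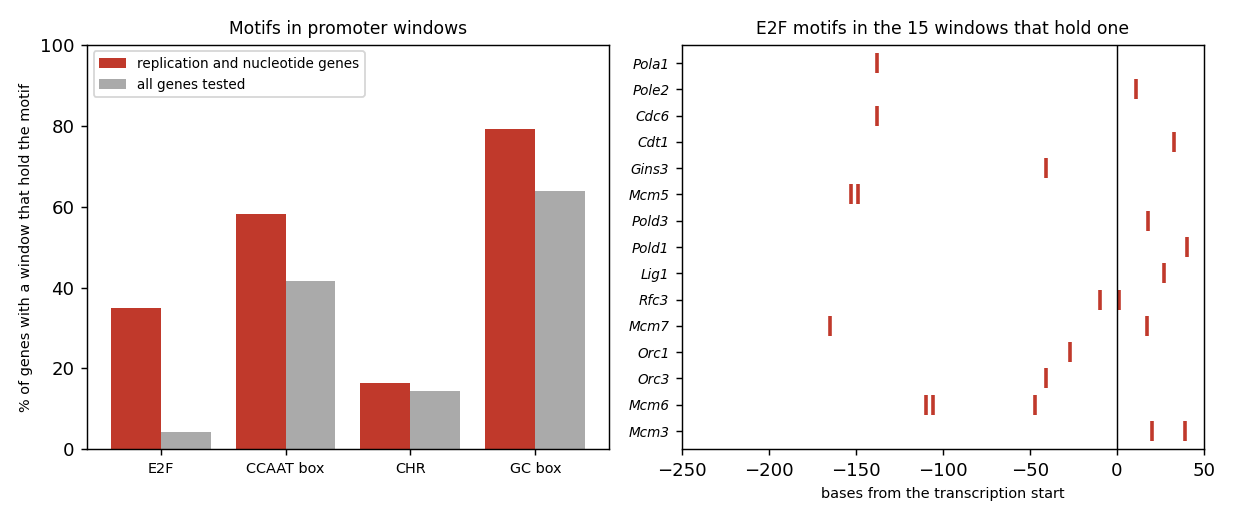
Left, the percentage of genes whose promoter window holds each motif, for the 43 members with a window and for the tested genes; the E2F bars stand at 34.9% and 4.35%. Right, the distance of each E2F motif from the annotated start in bases, 1 line for each of the 15 members' windows that hold one.

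The licensing genes rose together on day 4. All 9 rose by then, with a median of 1.90. On day 9, 4 were called above day 0 and 2 below it, where 36% of all tested genes were called up and 22% down. Orc2, a core subunit of the origin recognition complex, rose the most. Its signals were 5.00 and 4.98 on day 0, 7.90 and 7.74 on day 4, 7.36 and 7.45 on day 9, and 7.44 and 7.35 with KU55933. All cultured arrays lay far above day 0, by 2.83 ± 0.11 on day 4 (7.11-fold, adjusted p = 1.45e-06) and by 2.42 ± 0.11 on day 9 (5.34-fold, adjusted p = 2.09e-06). Orc3, another subunit, rose the least of the group, with 7.32 and 7.48 on day 0, 8.07 and 7.99 on day 4, 7.66 and 7.65 on day 9, and 7.74 and 7.74 with the inhibitor. Its arrays did not overlap between days 0 and 4 (0.63 ± 0.11, adjusted p = 0.00149, but 0.12 and not called after quantile normalisation), and its day 9 difference from day 0 of 0.25 was not called (adjusted p = 0.0808). The other subunits rose by 0.69 (Orc5) to 2.28 (Orc6) on day 4, and Orc5 read 0.68 above day 0 on day 9 as well, with a difference from day 4 of -0.01.

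The loaders of the helicase went the other way on day 9. Cdc6, the ATPase that loads MCM rings, read 5.18 and 4.40 on day 0, 7.53 and 7.44 on day 4, 4.01 and 3.66 on day 9, and 4.81 and 4.57 with KU55933. Day 4 stood well above every other array, and the untreated day 9 arrays were the lowest. The change was 2.70 ± 0.25 on day 4 (6.50-fold, adjusted p = 4.50e-05) and -0.95 ± 0.25 from day 0 to day 9 (adjusted p = 0.0118). The day 9 value was -0.56 without day 0 replicate 1, and it was not called without day 9 replicate 2 (adjusted p = 0.0694). Cdt1, the partner loader, gave 7.13 and 6.91, then 8.14 and 8.14, then 6.02 and 6.24, and 6.62 and 6.51 with KU55933. Its groups did not overlap, and it rose by 1.12 ± 0.13 (adjusted p = 0.000167) before it fell below day 0 by 0.89 ± 0.13 (adjusted p = 0.000657). Gmnn encodes geminin, which blocks Cdt1 outside licensing time. It read 4.90 and 4.77 on day 0, 6.87 and 6.59 on day 4, 4.64 and 4.64 on day 9, and 4.52 and 5.06 with the inhibitor. Its rise of 1.90 ± 0.19 was called (adjusted p = 6.45e-05), and day 9 lay close under day 0 (adjusted p = 0.405). Orc1, the regulated ATPase subunit of the complex, rose by 2.03 and was not called different from day 0 on day 9 (0.10, adjusted p = 0.65).

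All 6 genes of the MCM ring, the core of the replicative helicase, rose by 1.91 to 3.18, and all 6 fell again by day 9. Mcm3 rose the most, from 5.91 and 6.33 to 9.25 and 9.34, and then read 6.43 and 6.45 on day 9 and 7.10 and 7.16 with KU55933. The groups did not overlap. The rise was 9.07-fold (3.18 ± 0.15, adjusted p = 2.35e-06) and the fall to day 9 was 7.25-fold (adjusted p = 9.29e-06). Mcm6 rose the least, with 7.76 and 8.23 on day 0, 9.92 and 9.89 on day 4, 7.75 and 7.93 on day 9, and 8.14 and 8.15 with the inhibitor. Day 9 overlapped day 0, and the rise was 3.76-fold (1.91 ± 0.16, adjusted p = 3.01e-05).

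Mcm2 read 6.70 and 6.81, then 9.43 and 9.29, then 7.39 and 7.56, and 7.33 and 7.36 with KU55933. Both day 9 groups lay above day 0 and below day 4, with a day 9 difference from day 0 of 0.73 ± 0.12 (adjusted p = 0.00107), or 0.25 and not called after quantile normalisation. Mcm5 read 7.02 and 7.07, then 9.91 and 9.64, then 6.44 and 6.32, and 7.34 and 7.14 with KU55933. The untreated day 9 arrays were the lowest and both inhibitor arrays lay above day 0. Mcm5 rose 6.64-fold by day 4 (2.73 ± 0.13, adjusted p = 2.83e-06), fell 10.5-fold from there (adjusted p = 3.06e-06) and ended below day 0 by 1.59-fold (-0.67 ± 0.13, adjusted p = 0.0033). Mcm7 was also lower than on day 0 (-0.40, adjusted p = 0.0437), a call lost under 11 of 17 settings with -0.23 without day 0 replicate 2, while Mcm3, Mcm4 and Mcm6 were not called.

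Of the 8 genes that fire licensed origins, all rose on day 4, with a median of 2.44. Gins1, a subunit of the GINS complex that completes the active helicase, rose the most. It read 3.66 and 3.88 on day 0, 6.77 and 6.71 on day 4, 3.85 and 3.58 on day 9, and 3.72 and 4.05 with KU55933. Day 4 alone stood apart, 7.80-fold above day 0 (2.96 ± 0.16, adjusted p = 3.78e-06), and since day 0 lay below the array median this fold may be understated. Gins4, of the same complex, rose the least. Its arrays read 6.82 and 6.96, then 8.06 and 7.95, then 7.75 and 7.68, and 7.66 and 7.66 with the inhibitor. All cultured arrays lay above day 0, by 1.12 ± 0.11 on day 4 (adjusted p = 6.78e-05) and 0.82 ± 0.11 on day 9 (adjusted p = 0.000387), and the step between them was not called (-0.29, adjusted p = 0.091). Gins2 and Gins3, the other subunits given here, rose by 2.33 and 2.04. Cdc45, the third partner of the active helicase, rose by 2.80 and fell by 3.32 after day 4. The firing kinase Cdc7 and its activator Dbf4 rose by 1.62 and 2.54, and on day 9 Dbf4 stood 0.79 above day 0 (adjusted p = 0.000666) while Cdc7 was not called (-0.26, adjusted p = 0.141).

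**Figure D3:**
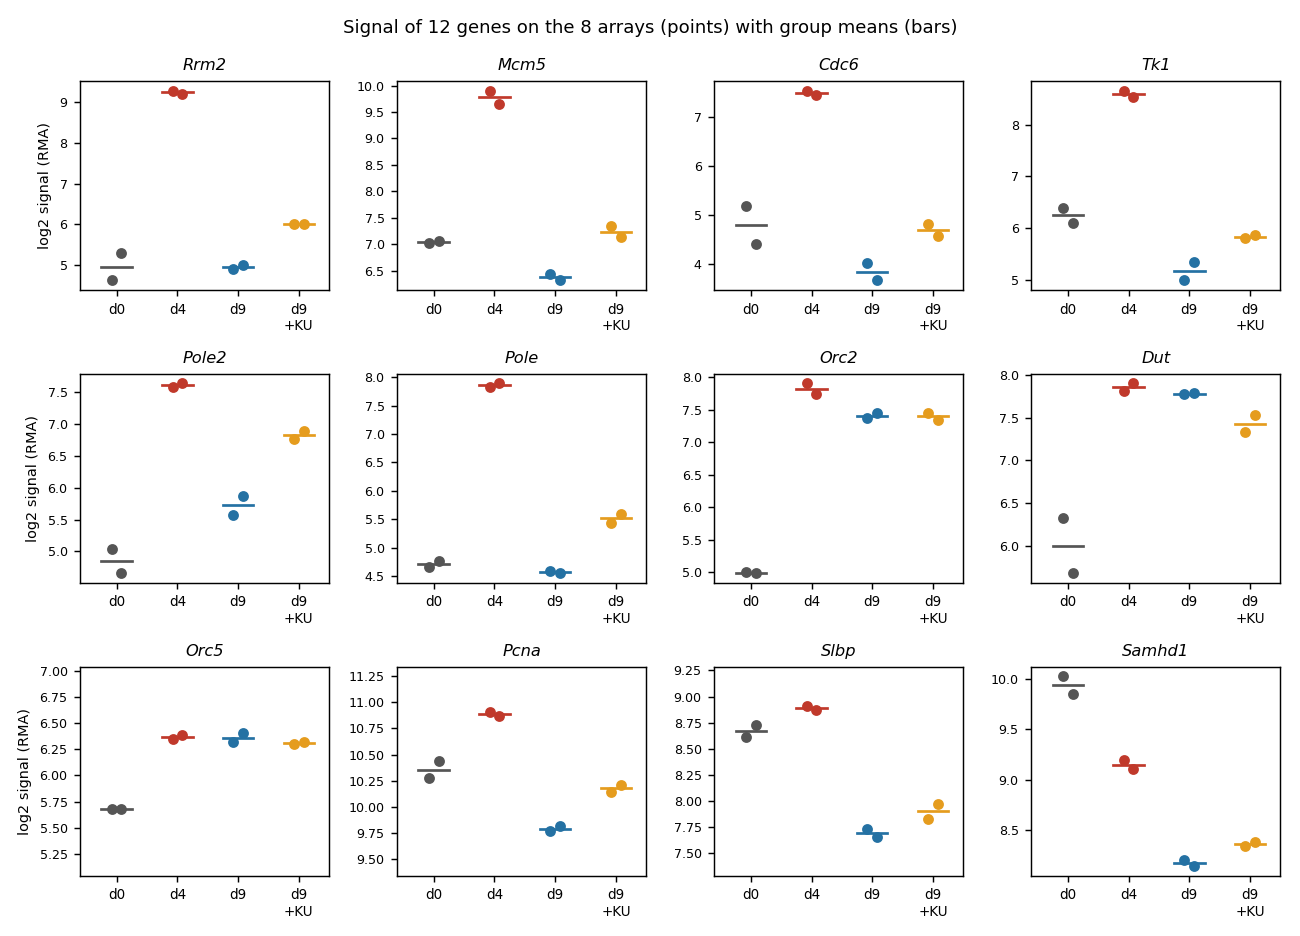
Log2 signal of 12 genes on every array, 1 point for each array and a line for the group mean, by group. Mcm5, Cdc6 and Tk1 fall below their day 0 arrays on day 9, Orc2 and Dut stay above theirs, and Samhd1, which breaks down deoxynucleotides, falls from 10.03 and 9.85 to 8.20 and 8.14.

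Polymerase and primase genes rose as a group, all 9 of 9 by a median of 2.27. Prim1, the catalytic primase subunit that starts each new strand, rose the most. It read 5.33 and 5.38 on day 0, 8.59 and 8.56 on day 4, 6.05 and 6.05 on day 9, and 6.29 and 6.55 with KU55933. The groups did not overlap, and the rise was 9.30-fold (3.22 ± 0.12, adjusted p = 1.21e-06). Pold1, the catalytic subunit of the lagging-strand polymerase delta, rose the least, from 7.35 and 7.17 to 7.89 and 7.93, and then read 6.23 and 6.17 on day 9 and 6.70 and 6.55 with KU55933. Its 0.65 ± 0.12 rise (adjusted p = 0.00171) was not called with arrays centred (0.30) or quantile normalised (0.13), and it was followed by a day 9 level 2.08-fold below day 0 (adjusted p = 0.000126). Its partner Pold2 stood 2.54-fold above day 0 on day 9 (1.35 ± 0.12, adjusted p = 4.16e-05). In polymerase alpha, catalytic Pola1 was below day 0 (-0.81, adjusted p = 0.00194). Accessory Pola2 was 0.38 above it (adjusted p = 0.0232), but -0.088 and not called after quantile normalisation.

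Polymerase epsilon copies the leading strand. Its catalytic gene Pole read 4.65 and 4.77 on day 0, 7.83 and 7.89 on day 4, 4.59 and 4.55 on day 9, and 5.44 and 5.59 with KU55933. It rose 8.87-fold (3.15 ± 0.11, adjusted p = 1.12e-06), returned to just under day 0 (adjusted p = 0.305), and both inhibitor arrays lay above day 0 and far below day 4. Its accessory subunit Pole2 read 5.03 and 4.66, then 7.57 and 7.63, then 5.57 and 5.87, and 6.76 and 6.88 with KU55933. No groups overlapped, and day 9 was 1.83-fold above day 0 (0.87 ± 0.16, adjusted p = 0.00204).

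The sliding clamp and its loader had the smallest median of any role on day 4. All 5 measured genes rose on day 4, by a median of 0.90. Pcna, the clamp itself, read 10.27 and 10.44 on day 0, 10.91 and 10.87 on day 4, 9.77 and 9.81 on day 9, and 10.14 and 10.21 with KU55933. Its groups did not overlap, with 0.54 ± 0.11 up (1.45-fold, adjusted p = 0.00359) and then to below day 0 (-0.56 ± 0.11, adjusted p = 0.00281). The rise was not called with arrays centred (0.19) or quantile normalised (0.23). Rfc5, a small subunit of the clamp loader, rose the most, with 5.81 and 5.44, then 8.09 and 8.04, then 6.38 and 6.26, and 6.45 and 6.18. Its rise was 5.43-fold (2.44 ± 0.16, adjusted p = 7.81e-06), and both day 9 groups stayed above day 0. Rfc1, the large subunit, rose the least, with 7.07 and 6.61, then 7.38 and 7.35, then 6.72 and 6.87, and 6.80 and 6.94. Day 4 lay above day 0 (0.53 ± 0.16, adjusted p = 0.0238), which the day 9 groups overlapped. This call was lost under 6 of 17 settings, with 0.18 when centred and 0.29 without day 0 replicate 2.

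Single-strand binding and lagging-strand genes all rose on day 4, 5 of 5 by a median of 1.46. Lig1, the ligase that seals Okazaki fragments, rose the most. It read 5.81 and 5.91 on day 0, 7.83 and 7.65 on day 4, 5.27 and 5.30 on day 9, and 5.82 and 5.92 with KU55933. Day 9 alone lay below day 0 (-0.57 ± 0.12, adjusted p = 0.00337) after a 3.69-fold rise (adjusted p = 6.43e-06), and the inhibitor arrays overlapped day 0. Fen1, which trims the fragments, rose 2.76-fold and had a day 9 difference of -0.63 from day 0 (adjusted p = 0.00172). A dimmer cluster of Fen1 was not called on day 4 (0.52, adjusted p = 0.0586). On day 9 that cluster was not called against day 0 either (-0.32, adjusted p = 0.204). Rpa3, the smallest subunit of the single-strand binding protein RPA, rose the least and varied the most on day 9. It read 7.39 and 7.03, then 8.19 and 8.12, then 7.06 and 7.69, and 7.25 and 7.38. Day 9 overlapped day 0, and the day 4 rise was 0.95 ± 0.21 (adjusted p = 0.00557, but 0.43 and not called after quantile normalisation). A dimmer cluster of Rpa3 rose by 1.28 on day 4 but stayed 0.95 above day 0 on day 9 (adjusted p = 0.0016), so the clusters differ on day 9. Rpa1, the large subunit, was 0.54 above day 0 on day 9 (adjusted p = 0.00763), a call lost when its clusters were averaged (0.15) and when arrays were centred (0.31). Rpa2, the middle subunit, rose by 1.20 on day 4 and was not called on day 9 (adjusted p = 0.434).

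The deoxynucleotide genes held the member with the largest change. All 5 rose on day 4, by a median of 2.36. Rrm2, the small regulated subunit of ribonucleotide reductase, read 4.63 and 5.30 on day 0, 9.27 and 9.19 on day 4, 4.92 and 5.01 on day 9, and 6.02 and 6.01 with KU55933. Day 4 stood 19.2-fold above day 0 (4.26 ± 0.20, adjusted p = 2.35e-06), and day 9 fell 19.3-fold from there to within the day 0 arrays (adjusted p = 5.09e-06 for the fall). Rrm1, the large subunit, read 6.64 and 6.86, then 10.24 and 10.13, then 7.13 and 7.28, and 7.67 and 7.57. It rose 10.8-fold (3.44 ± 0.13, adjusted p = 1.15e-06), and its day 9 level stayed 0.46 ± 0.13 above day 0 (adjusted p = 0.0152), a difference that was gone after quantile normalisation.

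Of the enzymes for thymidine nucleotides, Tk1 salvages thymidine. It read 6.39 and 6.10 on day 0, 8.66 and 8.55 on day 4, 4.98 and 5.35 on day 9, and 5.80 and 5.86 with KU55933. After a 5.13-fold rise (adjusted p = 9.33e-06) it ended 2.11-fold below day 0 (-1.08 ± 0.16, adjusted p = 0.000601), and the day 9 arrays were the lowest of all. Tyms, which makes thymidylate anew, read 5.30 and 5.70, then 7.21 and 7.48, then 5.64 and 5.67, and 5.84 and 5.71. Its rise was 3.60-fold (1.85 ± 0.16, adjusted p = 3.40e-05), and day 9 overlapped day 0. Dut, which clears dUTP so that uracil stays out of DNA, read 6.32 and 5.68, then 7.81 and 7.90, then 7.77 and 7.78, and 7.33 and 7.53. It rose by 1.85 ± 0.20 and was 3.43-fold above day 0 on day 9 (1.78 ± 0.20, adjusted p = 0.000146). A dimmer cluster of Dut was not called on day 4 (0.60, adjusted p = 0.0843). On day 9 that cluster lay 0.97 above day 0 (adjusted p = 0.0175).

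Of the genes for histone supply, Chaf1b, a subunit of the assembly factor CAF-1, rose 6.91-fold. It read 5.76 and 5.23 on day 0, 8.33 and 8.23 on day 4, 5.88 and 5.83 on day 9, and 6.20 and 5.82 with KU55933. Day 4 stood far above the rest (2.79 ± 0.20, adjusted p = 1.17e-05). Chaf1a, its large partner, rose 5.02-fold and ended below day 0 (-0.45, adjusted p = 0.0141). Slbp binds the stem-loop of histone mRNAs, and its product is known to be set largely at the protein level. It read 8.61 and 8.73, then 8.91 and 8.87, then 7.73 and 7.66, and 7.83 and 7.97. The day 4 arrays lay only just above day 0 (0.22 ± 0.11, adjusted p = 0.125), and both day 9 groups lay below every other array (-0.97 ± 0.11 on day 9, adjusted p = 0.000165).

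**Figure D4:**
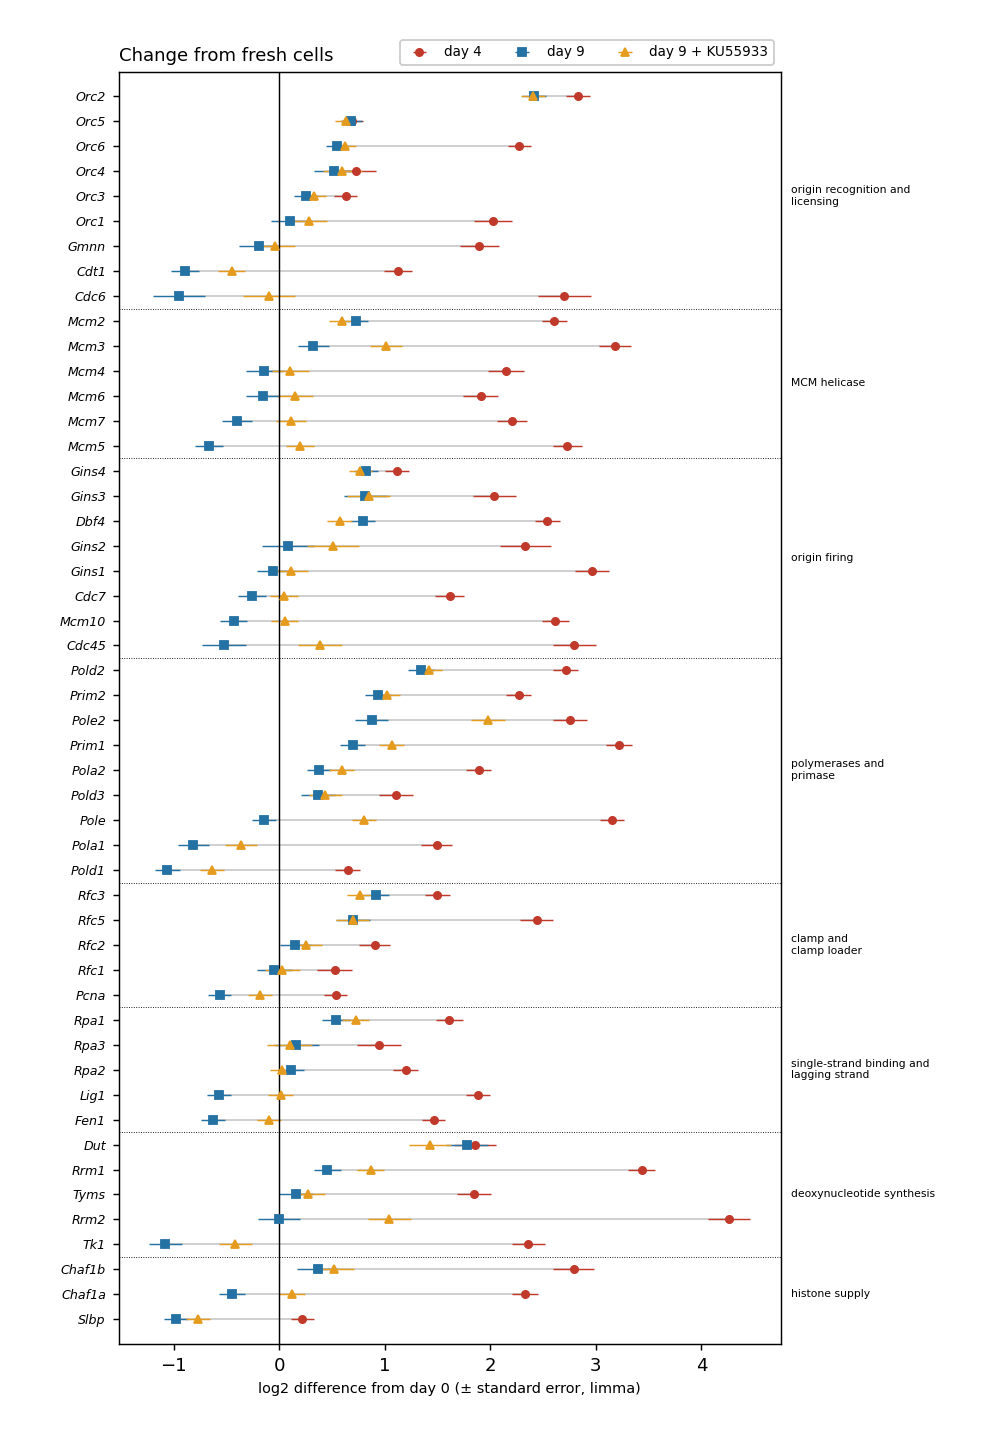
Difference from day 0 of each member on day 4, on day 9 and on day 9 with KU55933, in log2 units, with standard errors from limma, ordered by role. Day 4 differences run from 0.22 to 4.26, and day 9 differences lie on both sides of 0, from -1.08 to 2.42.

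With KU55933, few replication genes passed the test against untreated day 9, and most lay on the higher side. Of the 50 members, 3 rose and none fell at limma's adjusted p below 0.05, against 0.75% of all tested genes called up and 0.236% called down. They were Pole (0.94 ± 0.11, 1.92-fold, adjusted p = 0.0172), Pole2 (1.10 ± 0.16, 2.14-fold, adjusted p = 0.0317) and Mcm5 (0.86 ± 0.13, 1.82-fold, adjusted p = 0.0365), the arrays of which are given above. The median difference was 0.20 over the members and 0.02 over all tested genes. Both inhibitor arrays lay above both day 9 arrays in 33 members (66%), where the share over all tested genes was 26.7%, and below them in 6 members (12%), where it was 21.3%. At an unadjusted p below 0.05, 19 members were higher and 0 lower, with 7.42% and 4.8% of all tested genes.

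Beyond the called genes, the largest differences were in Rrm2 (1.05, 95% interval 0.58 to 1.51, adjusted p = 0.0668), Cdc45 (0.91, 0.43 to 1.38, adjusted p = 0.109), Cdc6 (0.85, 0.28 to 1.43, adjusted p = 0.21) and Mcm3 (0.69, 0.34 to 1.03, adjusted p = 0.0978). None of these passed the threshold. The difference was -0.01 for Orc2 (interval -0.28 to 0.25), -0.05 for Gins4 (-0.31 to 0.20) and -0.05 for Orc5 (-0.29 to 0.18), while Dut had the lowest difference of all, -0.35 (-0.82 to 0.12). The 3 calls rest on few arrays: the count ran from 0 to 6 as single arrays were left out, and it was 1 under quantile normalisation, with each of the 3 lost under at least 8 of 18 other settings.

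**Figure D5:**
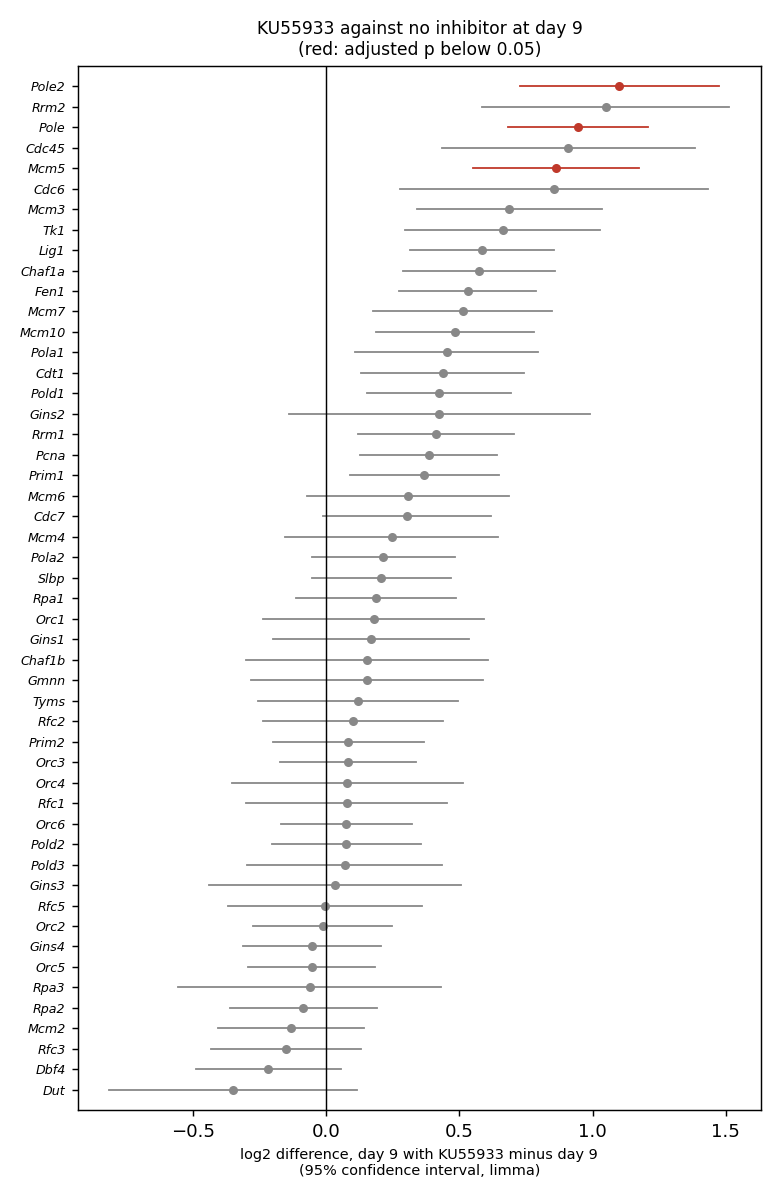
Difference of each member between day 9 with KU55933 and day 9 without it, in log2 units, with the 95% interval from limma, ordered by size. Pole2, Pole and Mcm5, in red, are the 3 with adjusted p below 0.05, and 40 of the 50 points lie above 0. The median difference over all tested genes was 0.02.

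KU55933 did not bring the genes back to the day 4 level. Against day 4, 44 members of the inhibitor group were lower and none higher, where 13.7% of all tested genes were called down and 12.3% up, and the member median was -1.61. Rrm2 still stood below day 4 (-3.22, adjusted p = 2.45e-05), and Pole2 was the closest of the 3 called genes, at -0.78 (adjusted p = 0.00966).

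Against day 0, 23 members of the inhibitor group were higher and 3 lower, where 37.3% of all tested genes were called up and 21.9% down. The member median was 0.36, beside 0.11 over all tested genes. After centring, which moved every gene's difference by -0.30, 17 were higher and 8 lower. The centred shares over all tested genes were 28.5% called up and 37.2% down. This comparison shares the day 0 arrays with the untreated one, and the values stand side by side. Rrm2 was 1.04 above day 0 with the inhibitor (adjusted p = 0.00246), where the untreated cells had adjusted p = 0.986. Mcm3 was 1.01 above (adjusted p = 0.000618) beside 0.32 (adjusted p = 0.0989), and Pole 0.80 above (adjusted p = 0.000474) beside -0.14 (adjusted p = 0.305). Mcm5 was at 0.20 (adjusted p = 0.245) beside -0.67, and Tk1 at -0.42 (adjusted p = 0.0523) beside -1.08. The 3 lower members were Cdt1 (-0.45, adjusted p = 0.0188), Pold1 (-0.63, adjusted p = 0.00197) and Slbp (-0.77, adjusted p = 0.000586). The difference between the day 9 groups themselves is the one given above, where of these genes Pole and Mcm5 were called.

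Most genes around the core machinery also rose on day 4. Of 57 further replication and nucleotide genes, 51 had a cluster of their own and were bright enough to test. On day 4, 42 of them rose and 1 fell, with a median of 1.77. The shares over all tested genes were 37.5% called up and 22.4% down. Against day 4, 41 were lower on day 9 and 3 higher (median -1.26), where 15.6% of all tested genes were called down and 12.2% up. Against day 0, 22 were higher and 12 lower (median 0.21), where 36% of all tested genes were called up and 22% down. Top2a, the topoisomerase that untangles copied chromosomes, read 7.08 and 6.99 on day 0, 9.91 and 9.84 on day 4, 6.18 and 6.16 on day 9, and 6.94 and 6.97 with KU55933. It rose by 2.84, fell by 3.70 and ended below day 0 (-0.86, adjusted p = 0.000208). Tipin, a fork protection factor, and Mtbp, a partner of the firing factor Ticrr, rose by 3.22 and 3.28, and Mtbp stayed 2.67 above day 0 on day 9 (adjusted p = 2.17e-06). Pclaf, a partner of the clamp, fell by 4.05 from day 4 to day 9, and the checkpoint mediator Clspn by 3.69. Ctps, which makes CTP, was 1.18 above day 0 on day 9, and the nuclease-helicase Dna2 was at -2.10 (adjusted p = 1.24e-05).

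A few of these genes moved the other way. Samhd1, which breaks down deoxynucleotides, fell at each step, by 0.79 on day 4 (adjusted p = 0.000528) and stood below day 0 on day 9 (-1.77, adjusted p = 8.51e-06). The p53-induced reductase subunit Rrm2b read 5.68 and 6.51 on day 0, 6.28 and 6.05 on day 4, 7.04 and 7.03 on day 9, and 7.13 and 7.11 with KU55933. It did not pass on day 4 (0.07, adjusted p = 0.821) and was 0.87 above day 4 on day 9 (adjusted p = 0.0317), the reverse of Rrm2. Mitochondrial thymidine kinase Tk2 (1.02, adjusted p = 0.011) and the small polymerase delta subunit Pold4 (1.20, adjusted p = 0.000463) were the others above day 4 on day 9.

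With KU55933 against untreated day 9, 0.75% of all tested genes were called up and 0.236% down. Of these 51 genes, 3 rose and none fell. They were Top2a (0.79, adjusted p = 0.0239), Timeless, the fork protection partner of Tipin (0.90, adjusted p = 0.0335), and the mitochondrial nucleotide kinase Cmpk2 (1.32, adjusted p = 0.041). Against day 4 the inhibitor group had 4 higher and 40 lower, where 12.3% of all tested genes were called up and 13.7% down. Pold4 (1.29), Rrm2b (0.96) and mitochondrial deoxyguanosine kinase Dguok (0.64) were higher, and Top2a (-2.92), Pclaf (-3.54) and Fbxo5, an inhibitor of mitotic ubiquitination (-2.90), were lower. Against day 0 it had 24 higher and 3 lower, where 37.3% of all tested genes were called up and 21.9% down. The 3 lower were Samhd1 (-1.57), Dna2 (-1.47) and the maintenance methyltransferase Dnmt1 (-0.62), and Mtbp (2.55), Pold4 (1.29) and Tipin (1.12) had the lowest p of those above.

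The authors' deposited table of group averages listed 47 of the 50 members, without Orc4, Rfc1 and Rpa3. In the authors' deposited table, 45 of these had an ANOVA false discovery rate below 0.05, and Pold3 and Rfc2 were just above it at 0.0502 and 0.0506. Group averages in the authors' deposited table differed from those computed here by at most 0.00495.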

How the data were processed

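The 8 arrays were processed by the authors with RMA, per the submitters' processing notes, which also name the Transcriptome Analysis Console; versions and a genome build were not given in the sources used here. The deposited values are log2 signals of 41345 transcript clusters, of which 23521 had 1 gene symbol in the platform annotation, 1820 several and 16004 none. The authors' deposited table also holds false discovery rate p-values of an ANOVA, copied and not recomputed.

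From the deposited log2 values, 1 cluster per gene (the highest mean over all arrays) was kept, with no further normalisation. Genes at or above the array median (percentile 50) on at least 2 arrays were tested in R 4.3.3 by limma 3.58.1 (eBayes after lmFit, all 4 groups in 1 fit, 4 residual degrees of freedom, 6 comparisons), with Benjamini-Hochberg adjustment over 13998 genes in each comparison. With 2 arrays a group, the number of arrays limits the precision. The replicate numbers gave no pairing, and the labels give no batch.

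All 51 members are named. Values on every array are given for the highest and lowest day 4 difference of each role, for 10 members set by name and for members called with KU55933, and Dut was added after its values were seen. Of the further genes, Rrm2b, Samhd1 and, in each comparison, the 3 called each way with the lowest p are named. An item of the rule is not reported here. The members and lists were chosen with earlier results of these data known. Symbols were matched to RefSeq (GRCm38.p6), which also gave the promoter windows. The alternatives tried were other filters, centring, quantile normalisation, averaging clusters of 1 gene and a variance trend with robust fitting. Array weights, a replicate block, a fit on the arrays compared, a 2-fold minimum and leaving out arrays were also tried. Centring used the median of the tested genes on each array.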

Additional observations from a re-analysis of the deposited data

Results flagged for a closer look

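Some clusters outside the comparisons also carried signal, and others were not called. The cluster shared by Rfc4, a subunit of the clamp loader, and the translation factor Eif4a2 read 4.80 and 4.56 on day 0, 8.34 and 8.42 on day 4, 6.47 and 6.44 on day 9, and 6.41 and 6.43 with KU55933. It was 3.70 higher on day 4 than on day 0 (limma adjusted p = 1.56e-05), and which of its genes carried the signal cannot be told apart. The second, dimmer cluster of Rpa3 read 5.40 and 5.43, then 6.57 and 6.81, then 6.34 and 6.37, and 6.47 and 6.25, with a day 4 difference from day 0 of 1.28 (limma adjusted p = 0.000412). Other clusters bright enough to test were not called on day 4. They were dimmer clusters of Fen1 (0.52, limma adjusted p = 0.0586) and Dut (0.60, limma adjusted p = 0.0843). A cluster shared by Mcm7 and Mir25 was not called either (-0.41, limma adjusted p = 0.108).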

How the results depend on the processing

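With 2 arrays a group and dim signals near the array median, small changes are poorly resolved, and no alternative replaces more samples. Of the calls on members, 42 of 49 were kept under all 17 alternatives for day 4 against day 0, 39 of 46 under 18 for day 9 against day 4, 38 of 44 for KU55933 against day 4, 19 of 31 for day 9 against day 0, 13 of 26 for KU55933 against day 0 and 0 of 3 for KU55933 against day 9. The count for KU55933 against day 9, 3 members, was 1 with no filter on dim genes, 1 with quantile normalisation, 1 on the 4 arrays compared, 1 with at least 2-fold, 8 with a filter at percentile 75, 8 with a variance trend, 9 with array weights and 6 without the day 0 arrays (chosen after seeing the data), and 0 to 6 with single arrays left out. Leaving out any array of day 4, day 9 or KU55933 gave 0, and leaving out either day 0 array gave 6. Pole was lost under 8 of 18 alternatives, Pole2 under 10 and Mcm5 under 11, and Rrm2 was gained under 7. A minimum of 2-fold left 5 members for day 9 against day 0 and 8 for KU55933 against day 0. The replicate numbers did not pair the samples (correlations of deviations from -0.03 to 0.05), and with the replicate block 1 member was called for KU55933 against day 9, while no other count moved by over 1.5 times. The median for day 4 against day 0 was 1.97 with the mean of clusters, 1.69 centred and 1.72 with quantile normalisation (2.01 to 2.10 with arrays left out). For day 9 against day 4 these were -1.74, -1.76 and -1.71 (-1.89 to -1.80). For day 9 against day 0 it turned to -0.093 centred and -0.069 with quantile normalisation. It was 0.13 centred for KU55933 against day 9 (0.18 to 0.28 with arrays left out), 0.063 centred and 0.11 with quantile normalisation for KU55933 against day 0 (0.29 to 0.44), and -1.67 to -1.59 with arrays left out for KU55933 against day 4. Single members changed sign. For day 9 against day 0, quantile normalisation gave -0.088 for Pola2, -0.33 for Rpa2 and -0.0044 for Rrm1, and Rrm2 was 0.33 without day 0 replicate 2 and -0.34 without day 0 replicate 1. For KU55933 against day 0, Lig1 was -0.29 centred, and quantile normalisation gave -0.16 for Orc3, -0.38 for Mcm7, -0.073 for Pold3, -0.46 for Rpa2 and -0.36 for Lig1. Centring and quantile normalisation act on the whole scale of an array, and the cause of the other changes was not tested.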
